A study of Mus musculus with 12 samples.

Results

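The 8 genes described here are Slc39a8, Slc39a14, Slc39a4, Slc39a6 and Slc39a10, which encode zinc importers of the ZIP family, Slc30a1, which encodes a zinc exporter of the ZnT family, and the metallothionein genes Mt1 and Mt2. They are 8 of the 19938 genes that a probe set with 1 gene symbol represented on Affymetrix mouse gene arrays. Each had 1 probe set, and all 8 passed the filter on dim genes that left 12988 genes for testing. The genes were chosen by the measured fall of Slc39a8 in KD1 stem cells, together with members of the same families. That difference is therefore given as a description with no test, for all 8 genes, and so is every difference of Slc39a8 that shares arrays with it.

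The cells belong to R1, a line of mouse embryonic stem cells (ESCs) kept on mouse embryonic fibroblasts treated with mitomycin. Lines with a Smarcd1 knockdown were set against lines with a scrambled sequence; the product of Smarcd1 is BAF60a, which belongs to the SWI/SNF (BAF) chromatin remodelling complexes. The labels speak both of infected cells and of clones, and name the knockdown lines KD1 and KD2. Undifferentiated ESCs in serum with leukemia inhibitory factor gave 2 scrambled, 2 KD1 and 2 KD2 arrays. Cells in serum with 1 µM retinoic acid and no leukemia inhibitory factor, 4 days into differentiation per the titles, make up 2 scrambled and 4 KD1 arrays. Whether feeders were removed before RNA was taken is not given in the labels. In bulk RNA fewer cells of a type and less RNA per cell cannot be told apart. Replicates are titled biological, with no word on how cultures were separated. The p-values therefore measure the spread between these arrays, and a line's other features cannot be told apart from its knockdown.

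Zinc enters the cytosol through ZIP proteins, from outside the cell or from organelles, and leaves it through ZnT proteins. Metallothioneins are small cysteine-rich proteins that bind zinc and copper in the cytosol. The transcription factor MTF-1 senses free zinc and binds metal response elements, by which Mt1, Mt2 and Slc30a1 are induced when zinc is high. ZIP8, the product of Slc39a8, and its close relative ZIP14, the product of Slc39a14, also carry manganese, iron and cadmium, and bring in the metal together with bicarbonate. In pluripotent cells zinc supply is known to bear on self-renewal, and visceral endoderm is a site of zinc uptake in the early embryo.

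The promoter windows are shown because matches to the core of the metal response element can be read in them directly. Slc39a8 had a pair of windows. The annotated gene spans of Slc39a8, Slc30a1 and Mt1 begin upstream of the start sites used here. No window at those upstream starts was read, and positions hold only for the start sites used. RefSeq windows (GRCm38.p6, 250 bases before to 50 after a start) were used for 5 of the 8 genes, 7 windows in all. No window of Slc39a14, Slc39a4 or Slc39a6 was used, so nothing is said about motifs near their starts. Capitals mark the core of the metal response element (TGCACNC or TGCGCNC) and the nuclear receptor half-site (AGGTCA), each searched on both strands, so that a match on the other strand appears as its reverse complement. No match of one motif overlapped a match of the other. The windows of Slc39a8 on the plus strand were chr3:135825029-135825328 (first) and chr3:135825407-135825706 (second), that of Mt1 was chr8:94178839-94179138 and that of Mt2 was chr8:94172368-94172667, also on the plus strand.
Slc39a8, first start: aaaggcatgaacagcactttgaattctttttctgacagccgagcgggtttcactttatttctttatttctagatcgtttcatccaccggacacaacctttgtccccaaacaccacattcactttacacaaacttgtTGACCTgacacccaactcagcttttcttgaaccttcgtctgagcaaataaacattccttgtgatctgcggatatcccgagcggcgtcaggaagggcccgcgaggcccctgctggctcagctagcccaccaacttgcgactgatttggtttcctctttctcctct
Slc39a8, second start: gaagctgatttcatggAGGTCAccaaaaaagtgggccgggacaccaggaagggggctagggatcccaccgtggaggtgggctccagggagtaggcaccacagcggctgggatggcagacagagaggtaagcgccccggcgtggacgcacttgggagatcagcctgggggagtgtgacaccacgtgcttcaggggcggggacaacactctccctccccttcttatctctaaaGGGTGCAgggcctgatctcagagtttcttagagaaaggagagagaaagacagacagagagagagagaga
Mt1: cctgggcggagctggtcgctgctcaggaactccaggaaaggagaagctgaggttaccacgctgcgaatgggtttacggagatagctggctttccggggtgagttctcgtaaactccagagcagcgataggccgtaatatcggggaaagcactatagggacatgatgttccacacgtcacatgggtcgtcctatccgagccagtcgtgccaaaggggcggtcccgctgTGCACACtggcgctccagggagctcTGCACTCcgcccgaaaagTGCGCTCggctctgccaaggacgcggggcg
Mt2: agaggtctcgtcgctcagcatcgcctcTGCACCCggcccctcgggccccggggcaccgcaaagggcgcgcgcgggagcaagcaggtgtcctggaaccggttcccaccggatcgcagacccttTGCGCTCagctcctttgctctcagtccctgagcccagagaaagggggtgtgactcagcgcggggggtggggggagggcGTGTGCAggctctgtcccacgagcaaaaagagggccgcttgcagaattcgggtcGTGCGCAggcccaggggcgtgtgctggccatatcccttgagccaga
The Mt1 window held 3 metal response element cores, starting at -23, 2 and 20 relative to the start site of that window. The Mt2 window held 4, starting at -223, -128, -50 and 4. At least 3 cores were present in 1.97% of the 32851 windows of this length in the table, and at least 1 core in 25.7%. The first Slc39a8 window held 0 cores and the second held 1, TGCACCC on the minus strand at -19. The Slc30a1 window, chr1:191906531-191906830 on the plus strand, held 2 cores, at -43 and 30. Both windows of Slc39a10 held 0. The half-site was present once in each Slc39a8 window, at -114 and -234, and in 16.3% of all windows. These matches describe letters in the windows and not binding.

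Smarcd1 itself was read first as a check of the labels. Its log2 values were 8.67 and 8.68 in scrambled ESCs, 7.75 and 7.78 in KD1 ESCs, and 8.84 and 8.64 in scrambled cells after retinoic acid. The 4 KD1 arrays after retinoic acid gave 6.36, 6.61, 6.50 and 6.44. KD2 ESCs gave 8.56 and 7.16, so the array labelled KD2 replicate 1 lay near the scrambled level and goes against its label. Each KD2 array also had a weight of 0.137 where the other arrays had at least 1.165 in the fit with array weights. KD2 differences are therefore given also with KD2 replicate 2 as the only KD2 array. All 8 markers of pluripotent ESCs fell with retinoic acid in scrambled cells and 7 of 8 in KD1 cells. Of all genes 16.7% and 21.4% were called lower in these comparisons. The array medians ran from 4.73 to 5.09.

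Slc39a8 had the largest knockdown differences of the 8 genes, in opposite directions before and after retinoic acid. Its log2 values in scrambled ESCs were 7.34 and 7.61. KD1 ESCs gave 4.99 and 5.13, and KD2 ESCs gave 5.31 and 4.49. Every knockdown ESC array, the one labelled KD2 replicate 1 included, thus lay more than a log2 unit below both scrambled ESC arrays. After retinoic acid the scrambled arrays gave 6.15 and 5.80. The 4 KD1 arrays gave 8.67, 8.67, 8.67 and 8.68, above every other array of the study. The order of the group means was 8.67 in retinoic acid KD1, 7.48 in scrambled ESCs, 5.97 in scrambled cells after retinoic acid, 5.06 in KD1 ESCs and 4.90 in KD2 ESCs. Each neighbouring pair in this order was free of overlap between arrays except KD1 and KD2 ESCs. KD2 differed from KD1 by -0.16 ± 0.23 (estimate ± SE, 95% confidence interval -0.67 to 0.36). The difference was -0.57 with KD2 replicate 2 alone and 0.25 with replicate 1 alone. The KD1 and KD2 ESC means lay at percentiles 46.6 and 44.3 of named genes. The 4.49 of KD2 replicate 2 was at the filter level, which ran from 4.46 to 4.63 over the arrays. Differences that use these low values are thus taken near the floor.

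**Figure D1:**
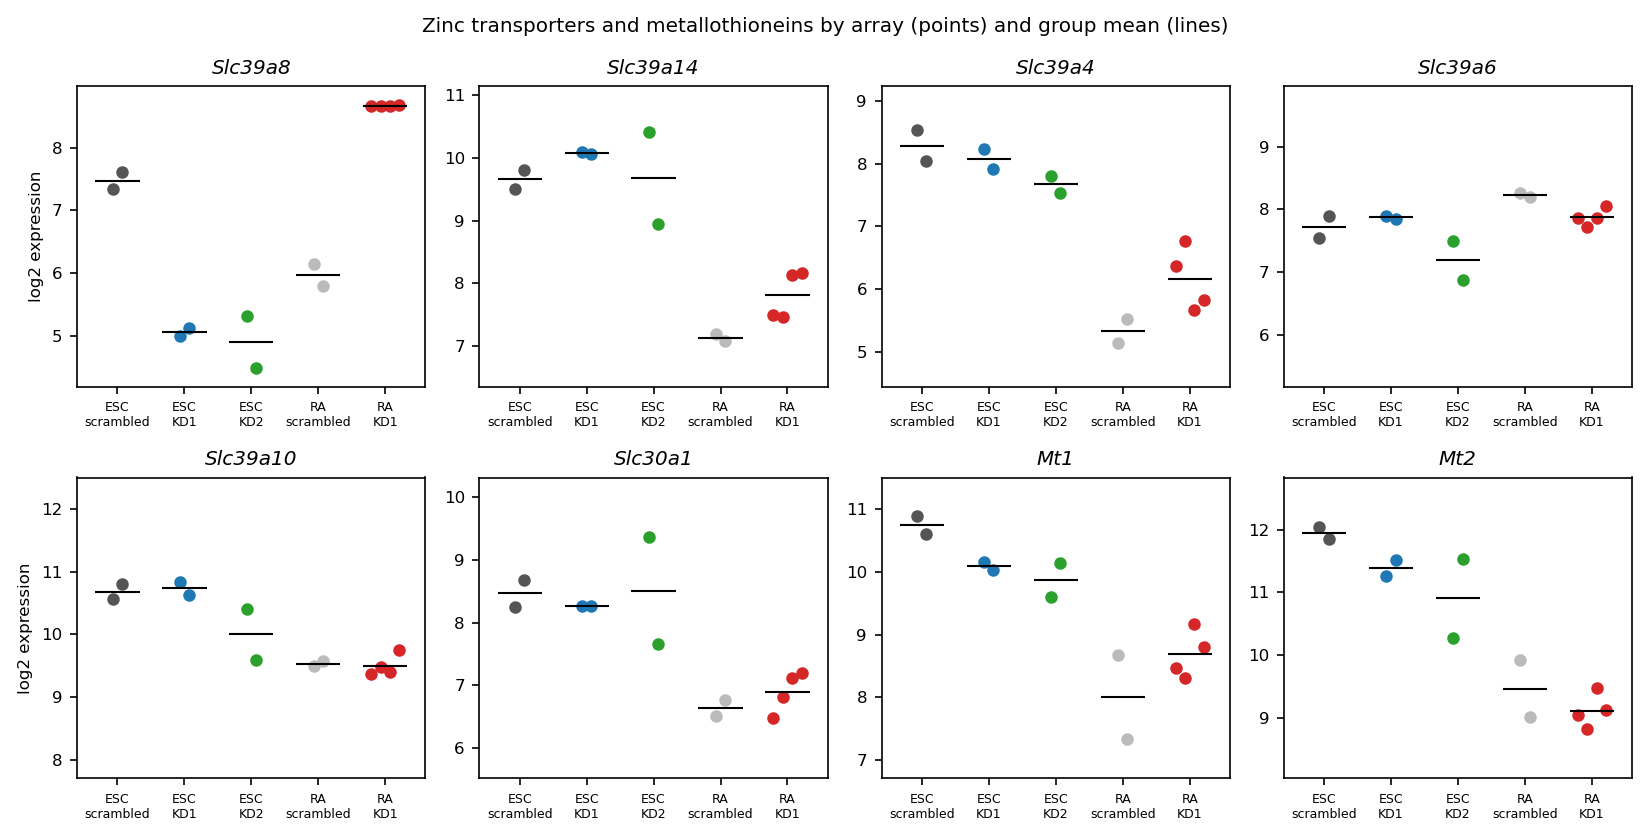
Deposited log2 expression of the 8 genes (vertical axis of each panel) by group (horizontal axis; RA, retinoic acid), with 1 point per array and a line at the group mean. Slc39a8 is lowest in KD1 and KD2 ESCs and highest in the 4 retinoic acid KD1 arrays, whose values lie within 0.01 of each other. Slc39a14, Slc39a4, Slc39a10, Slc30a1, Mt1 and Mt2 have lower means in both retinoic acid groups than in every ESC group.

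In log2 units Slc39a8 was lower in KD1 than in scrambled ESCs by an estimate of -2.42 ± 0.23, a 5.34-fold difference, which is the value that chose the gene. The KD2 difference was -2.57 ± 0.23, which became -2.98 once the array labelled KD2 replicate 1 was left out and -2.17 once KD2 replicate 2 was. It shares its scrambled arrays with the KD1 difference. With retinoic acid the level went down by 2.83-fold in scrambled cells (-1.50 ± 0.23) and up by 12.2-fold in KD1 cells (3.61 ± 0.20). No test is given for these differences, because they use the arrays that chose the gene.

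The difference of means between KD1 and scrambled cells after retinoic acid used none of those arrays and was tested. Its SE, interval and p-value rest on a spread pooled over all 12 arrays, those that chose the gene included. Slc39a8 was 6.48-fold higher in KD1, by 2.70 ± 0.20 log2 units (95% confidence interval 2.25 to 3.14, limma adjusted p = 3.42e-06), and all 4 KD1 arrays lay above both scrambled arrays. It was the 1 gene of the 8 that passed the adjusted p threshold of 0.05 in this comparison. Of all 12988 genes 22.7% passed it, 11.2% as higher and 11.5% as lower. Leaving out each of the 12 arrays in turn gave 2.52 to 2.87, with adjusted p-values of at most 0.000231.

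Markers of extraembryonic endoderm moved with this difference. Of 15 tested markers (median difference 1.91, against -0.02 over all genes) 12 were higher in retinoic acid KD1 than in scrambled cells and 0 were lower, among them Gata4 and Sox7, transcription factors of that lineage, by 4.34 ± 0.17 and 4.35 ± 0.42 (adjusted p = 4.92e-08 and 2.2e-05). The mean log2 level of these markers per array was 8.74 to 9.07 in retinoic acid KD1, 6.67 to 6.79 in retinoic acid scrambled, 6.40 to 6.46 in KD1 ESCs, 5.55 to 5.57 in scrambled ESCs and 5.24 to 5.54 in KD2 ESCs. Markers of feeders and fibroblasts went the other way after retinoic acid, with 5 of 13 lower in KD1 and a median of -0.72. Their array means were 6.81 to 7.23 in KD1 against 7.72 to 8.12 in scrambled cells. Of all genes 11.2% were called higher and 11.5% lower in this comparison. In ESCs the feeder markers were at 7.37 to 7.45 in scrambled, 6.32 to 7.10 in KD1 and 6.50 to 6.94 in KD2 cells. The part of these cell types in the Slc39a8 differences was not tested. Afp in the endoderm list and Lum in the fibroblast list lay below the filter.

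The genes next to Slc39a8 on chromosome 3 were read for the same comparisons. Of the 3 named genes on each side, Cisd2, Ube2d3 and Manba before it and Ppp3ca after it were tested. In KD2 ESCs Cisd2 was at -0.58 ± 0.20 (adjusted p = 0.0892) and the other 3 lay between 0.04 and 0.23, and replicate 2 alone put Cisd2 at -0.74 and the others between -0.17 and 0.50. The estimates for KD1 ESCs ran from -0.19 ± 0.20 for Cisd2, an iron-sulphur protein gene, to 0.32 ± 0.19 for Ppp3ca, a calcineurin subunit gene. After retinoic acid Manba, which encodes lysosomal beta-mannosidase, was higher in KD1 by 1.19 ± 0.20 (adjusted p = 0.00117). Cisd2 was at 0.47 ± 0.17 (adjusted p = 0.0703), Ppp3ca at -0.10 ± 0.16 and Ube2d3 at -0.12 ± 0.16. The median difference over the 600 genes tested on chromosome 3 was -0.02 in KD1 ESCs and -0.01 in KD1 cells after retinoic acid. Bank1 and Emcn lay below the filter.

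**Figure D2:**
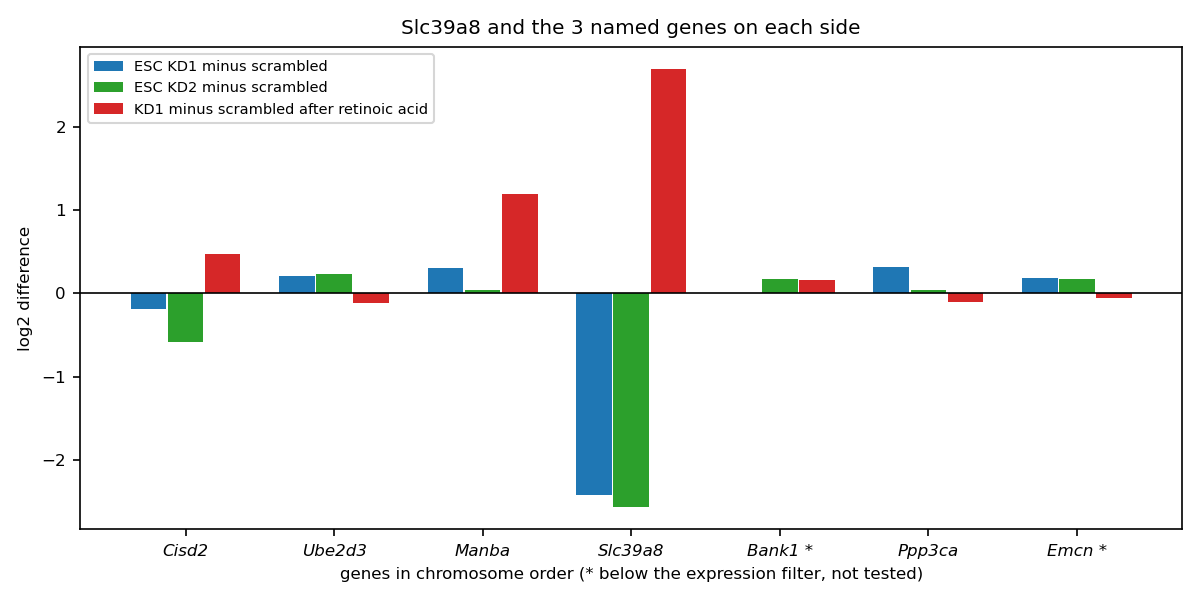
Log2 differences (vertical axis) of Slc39a8 and its 3 named neighbours on each side, in chromosome order along the horizontal axis, for KD1 and KD2 against scrambled ESCs and for KD1 against scrambled cells after retinoic acid. Bars start at 0, and the asterisk marks genes below the filter. The bars of Slc39a8 reach -2.42, -2.57 and 2.70, and Manba reaches 1.19 after retinoic acid.

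Likeness to Slc39a8 was measured over the 12 arrays as the root mean square log2 difference after each gene was centred on its own mean, among 12656 genes. The nearest were Nrcam at 0.68, which encodes a neural cell adhesion molecule, Chst15 at 0.72, Fhl2 and Car12 at 0.73, and P4ha1 at 0.74. All 5 had their highest group mean in retinoic acid KD1, as the choice by likeness favours. Chst15, a chondroitin sulphate sulphotransferase gene, was at 9.98 there, against 7.11 in scrambled, 5.44 in KD1 and 4.70 in KD2 ESCs. Not all had such a gap between scrambled and KD1 ESCs. These groups were at 6.07 and 5.94 for Car12 and at 8.83 and 8.67 for P4ha1. The other 7 zinc genes were far from it, from 1.51 for Slc39a6 to 2.42 for Mt2.

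Slc39a14 and Slc39a4, both importers of the cell surface, fell with retinoic acid in scrambled and in KD1 cells. Slc39a14 gave 9.51 and 9.81 in scrambled ESCs, 10.10 and 10.07 in KD1 ESCs, and 10.42 and 8.95 in KD2 ESCs. After retinoic acid it gave 7.19 and 7.08 in scrambled cells and 7.50, 7.47, 8.13 and 8.16 in KD1 cells, so that no retinoic acid array overlapped an ESC array. The fall was -2.52 ± 0.39 in scrambled cells (adjusted p = 0.000385) and -2.27 ± 0.34 in KD1 cells (adjusted p = 0.000179). Among retinoic acid arrays the KD1 values lay above the scrambled ones by 0.68 ± 0.34 with an adjusted p of 0.188. That p was 0.0228 when both KD2 arrays were left out of the pooled spread. In KD1 ESCs its difference from scrambled was 0.43. Chromosome 14, which holds the gene, had a median difference of 0.27 in KD2 ESCs over 451 genes and of 0.36 with KD2 replicate 2 alone. Between KD1 and scrambled cells after retinoic acid its median was 0.18, against -0.02 over all genes. With retinoic acid it was 0.29 in KD1 and 0.06 in scrambled cells, against 0.06 over all genes in each. The part of this shift in the Slc39a14 differences was not tested. Slc39a14 was at 0.02 ± 0.39 in KD2 ESCs (adjusted p = 0.982), at -0.71 with replicate 2 alone and at 0.76 with replicate 1 alone.

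Slc39a4, mutated in the zinc deficiency disorder acrodermatitis enteropathica, was low on all 6 arrays after retinoic acid. Its values were 8.54 and 8.04 in scrambled ESCs, 8.24 and 7.92 in KD1 ESCs, and 7.81 and 7.54 in KD2 ESCs. They were 5.14 and 5.53 in scrambled cells after retinoic acid and 6.36, 6.77, 5.67 and 5.83 in KD1 cells. The fall was 7.78-fold in scrambled cells (-2.96 ± 0.33, adjusted p = 3.65e-05) and 3.79-fold in KD1 cells (-1.92 ± 0.28, adjusted p = 0.000165). The 2 falls differed by 1.04 ± 0.43 (adjusted p = 0.193). After retinoic acid every KD1 array lay above both scrambled arrays, by 0.82 ± 0.28 on average, with an adjusted p of 0.057. Of 24 other settings 8 put it past the threshold and 16 did not. Leaving out both KD2 arrays gave 0.0393. KD1 replicates 1 and 2 alone gave 1.23 with 0.0112, and replicates 3 and 4 alone gave 0.42 with 0.287.

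Slc39a10 and Slc39a6, a pair of closely related importers that form a complex in the cell membrane, behaved differently from each other. Slc39a10 gave 10.57 and 10.80 in scrambled ESCs, 10.84 and 10.63 in KD1 ESCs, and 10.41 and 9.59 in KD2 ESCs. After retinoic acid it gave 9.49 and 9.57 in scrambled cells and 9.37, 9.48, 9.40 and 9.75 in KD1 cells. It fell by an estimate of -1.16 ± 0.24 in scrambled cells (adjusted p = 0.00279) and -1.24 ± 0.21 in KD1 cells (adjusted p = 0.000454), and the retinoic acid groups overlapped. The knockdown difference after retinoic acid was -0.03 ± 0.21, with an interval from -0.49 to 0.43.

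Slc39a6 gave 7.55 and 7.89 in scrambled ESCs, 7.90 and 7.85 in KD1 ESCs, 7.50 and 6.88 in KD2 ESCs, 8.26 and 8.20 in scrambled cells after retinoic acid, and 7.86, 7.72, 7.86 and 8.05 in KD1 cells. It was the 1 gene of the 8 whose scrambled arrays were higher after retinoic acid than before, by 0.51 ± 0.21 with an adjusted p of 0.0723. That p was 0.0106 without the KD2 arrays. In KD1 cells the difference was 0.00 ± 0.18 (interval -0.40 to 0.39), and the interaction of knockdown and retinoic acid was -0.51 ± 0.28 (adjusted p = 0.336).

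Slc30a1, the exporter of the plasma membrane and a known MTF-1 target, fell with retinoic acid in scrambled and KD1 cells. It gave 8.25 and 8.68 in scrambled ESCs and 8.27 on both KD1 arrays. Scrambled cells after retinoic acid gave 6.51 and 6.76, and KD1 cells gave 6.47, 6.81, 7.11 and 7.19. The fall was -1.83 ± 0.42 in scrambled cells (adjusted p = 0.00513) and -1.37 ± 0.37 in KD1 cells (adjusted p = 0.00847). The second lost the threshold without KD1 ESC replicate 1 (0.0537), without KD1 ESC replicate 2 (0.057) and with retinoic acid KD1 replicates 3 and 4 alone (0.0727). The KD2 arrays stood on opposite sides of the scrambled arrays, at 9.36 and 7.66. The KD2 difference was therefore 0.04 ± 0.42, with -0.80 from replicate 2 alone and 0.89 from replicate 1 alone.

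The metallothionein genes fell with retinoic acid in both scrambled and KD1 cells. Mt1 gave 10.89 and 10.61 in scrambled ESCs, 10.16 and 10.04 in KD1 ESCs, and 9.61 and 10.14 in KD2 ESCs. After retinoic acid the scrambled arrays gave 8.67 and 7.33, a wide gap, and the KD1 arrays gave 8.47, 8.31, 9.18 and 8.81. The fall was 6.73-fold in scrambled cells (-2.75 ± 0.39, adjusted p = 0.000198) and 2.66-fold in KD1 cells (-1.41 ± 0.34, adjusted p = 0.00427). The 2 falls differed by 1.34 ± 0.51 with an adjusted p of 0.154. The knockdown difference after retinoic acid was 0.69 ± 0.34 (adjusted p = 0.175), and 1 array decided it. Without scrambled replicate 1 it was 1.37 (adjusted p = 0.0193), and without scrambled replicate 2 it was 0.02.

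Mt2 gave 12.05 and 11.85 in scrambled ESCs, 11.27 and 11.52 in KD1 ESCs, and 10.27 and 11.54 in KD2 ESCs. After retinoic acid it gave 9.92 and 9.01 in scrambled cells and 9.05, 8.82, 9.47 and 9.12 in KD1 cells, with overlap between the lines. It fell by an estimate of -2.49 ± 0.38 in scrambled cells (adjusted p = 0.000369) and -2.28 ± 0.33 in KD1 cells (adjusted p = 0.00015). The knockdown difference after retinoic acid was -0.35 ± 0.33 (adjusted p = 0.533).

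In ESCs both metallothionein genes lay lower on all 4 knockdown arrays than on both scrambled arrays. Of all genes 27.2% lay lower in this way in KD1 and 22.2% in KD2, each against the same scrambled arrays. The share that did so in both lines was not counted, and nothing is read from the KD1 part. The differences were -0.65 ± 0.39 for Mt1 and -0.55 ± 0.38 for Mt2 in KD1, given without a test, and -0.88 ± 0.39 (adjusted p = 0.191) and -1.04 ± 0.38 (adjusted p = 0.115) in KD2. With KD2 replicate 2 as the only KD2 array Mt1 was at -0.61 (adjusted p = 0.338) and Mt2 at -0.41 (adjusted p = 0.385), and with replicate 1 alone Mt2 was at -1.68 (adjusted p = 0.00429). Both genes lie on chromosome 8, over whose 706 tested genes the median difference was -0.30 in KD1 ESCs, -0.32 in KD2 ESCs and -0.31 in KD1 cells after retinoic acid, against medians of 0.00, -0.02 and -0.02 over all genes. With KD2 replicate 2 alone it was -0.13 against 0.08. The part of this shift of the chromosome in the metallothionein differences was not tested. In the response to retinoic acid the chromosome's median was 0.09 in scrambled and 0.03 in KD1 cells, near the 0.06 of all genes.

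Likeness to Mt1 over the arrays was closest for Trim13 at 0.26, a ubiquitin ligase gene, followed by Ell2 at 0.40, which encodes an elongation factor, and by Esrp1, Taf4b and Slc20a1 at 0.44. Mt2 was at 0.46, rank 12 among the genes compared. Slc39a4 at 0.63, Slc39a14 at 0.64, Slc30a1 at 0.67 and Slc39a10 at 0.69 came next among the zinc genes, and Slc39a6 at 1.24 and Slc39a8 at 2.11 were farther away.

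Counted over the 7 genes other than Slc39a8, 6 fell with retinoic acid in scrambled cells, where 39.1% of all genes passed the threshold and 16.7% passed it as lower. The same number fell in KD1 cells, where 50.8% of all genes passed and 21.4% passed as lower. Slc39a14, Slc39a4, Slc39a10, Slc30a1, Mt1 and Mt2 made up the count in both. The median difference of all 8 genes was -2.16 in scrambled and -1.39 in KD1 cells, against 0.06 over all genes in each. With each array centred on its median the overall median moved to -0.09 and -0.17, and the split of called genes moved from 2914 higher and 2165 lower to 2421 and 2749 in scrambled cells, and from 3819 and 2777 to 2863 and 4213 in KD1 cells. The 6 genes fell under that scaling too, by an estimate of -1.31 (Slc39a10) to -3.11 (Slc39a4) in scrambled cells, and Slc39a8 was at 3.39 in KD1 cells.

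**Figure D3:**
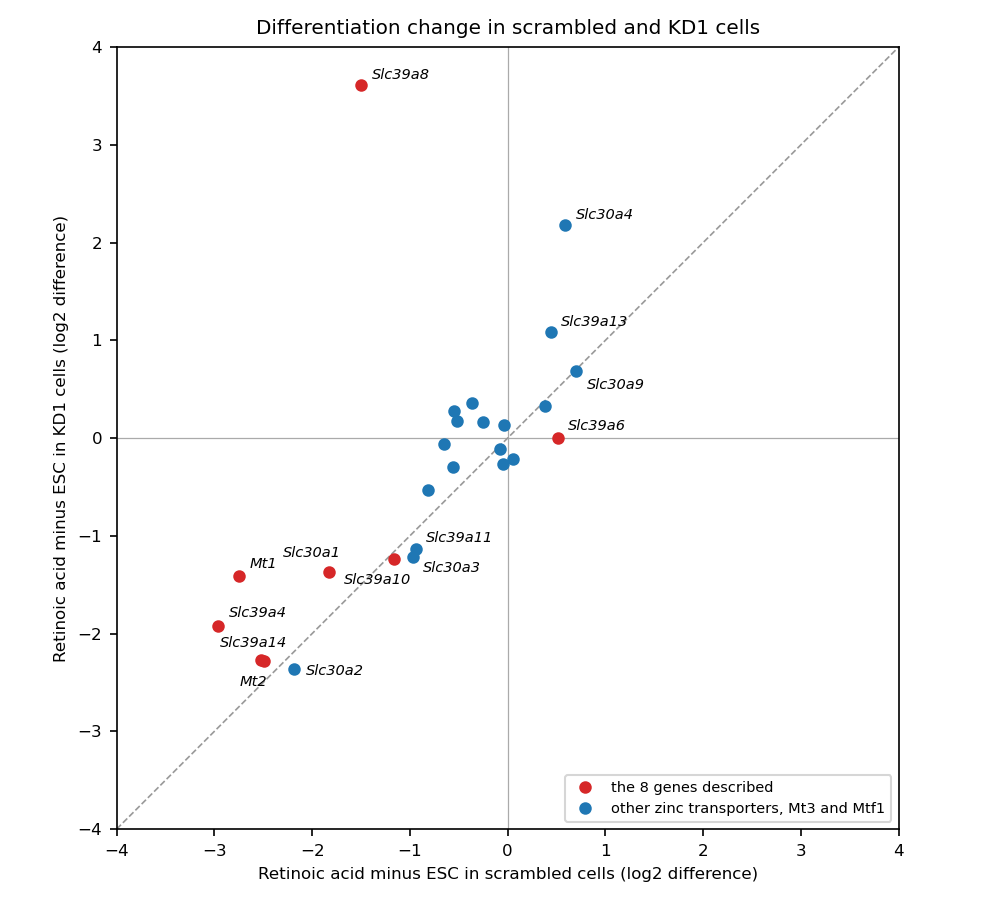
Log2 difference of retinoic acid minus ESC in scrambled cells (horizontal axis) and in KD1 cells (vertical axis) for the 8 genes and 18 further zinc genes, with the line of equal change dashed. The 2 axes share no arrays. Slc39a8 stands alone at -1.50 and 3.61, and Slc39a14, Slc39a4, Slc39a10, Slc30a1, Mt1 and Mt2 lie in the lower left.

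In the knockdown comparisons the 7 genes gave few calls. After retinoic acid limma called 0 of them between KD1 and scrambled, where 22.7% of all genes were called. An unadjusted p under 0.05 was found for 1 of the 7 and for 4317 of all 12988 genes. Once both KD2 arrays were left out of the pooled spread 3 were called, Slc39a14, Slc39a4 and Slc39a6, where 37.1% of all genes were. In KD2 ESCs 0 of 7 were called, where 10.0% of all genes were, 7.15% as lower. There 4 of the 7 had an unadjusted p under 0.05, all lower, as had 3131 of all 12988 genes in either direction. With only the compared arrays 0 of all 12988 genes were called in KD2 ESCs, where 1288 had an unadjusted p under 0.05, and with array weights 6 were. Without the array labelled KD2 replicate 1, Slc39a10 (-1.10, adjusted p = 0.00157), Slc39a6 (-0.84, adjusted p = 0.00441) and Slc30a1 (-0.80, adjusted p = 0.0447) passed as lower in KD2 ESCs. In that fit 34.4% of all genes passed, 15.1% as lower. Between KD2 and KD1 ESCs 0 of 7 were called, where 2.70% of all genes were. There 2 of the 7 had an unadjusted p under 0.05, as had 2125 of all 12988 genes. With KD2 replicate 2 alone the differences of the 7 genes ran from -1.15 for Slc39a10 to 0.15 for Mt2. In KD1 ESCs, given as a description, the differences of the 7 genes ran from -0.65 for Mt1 to 0.43 for Slc39a14, and 2.32% of all genes were called. The median difference of the 8 genes was -0.21 in KD1 and -0.65 in KD2 ESCs, against 0.00 and -0.02 over all genes, and -0.78 against 0.08 with KD2 replicate 2 alone. For the interaction of KD1 and retinoic acid 0 of 7 were called, where 7.88% of all genes were. There 2 of the 7 had an unadjusted p under 0.05, as had 2651 of all 12988 genes.

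Overlap between arrays was read with no test. In scrambled cells 7 of the 8 genes lay lower on both retinoic acid arrays than on both ESC arrays. The remaining 1 lay higher, where 33.6% of all genes lay lower and 43.5% higher. The 7 included Slc39a8, which those scrambled ESC arrays helped to choose. In KD1 cells 6 lay lower and 1 higher, against 33.2% and 40.9%. The 1 was Slc39a8, which those KD1 ESC arrays helped to choose. Between KD1 and scrambled cells after retinoic acid 3 lay higher (Slc39a8, Slc39a14 and Slc39a4) and 1 lower (Slc39a6), against 26.5% and 27.5%. In ESCs 1 gene lay higher and 3 lower in KD1, against 25.5% and 27.2%, and nothing is read from these because the comparison chose the genes. In KD2 ESCs 6 lay lower, against 22.2%, and on KD2 replicate 2 alone all 8 did, against 35.9%. Both KD2 counts include Slc39a8, which was chosen by its level on the same scrambled ESC arrays. Nothing is read from that gene's part in any count that uses those arrays.

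**Figure D4:**
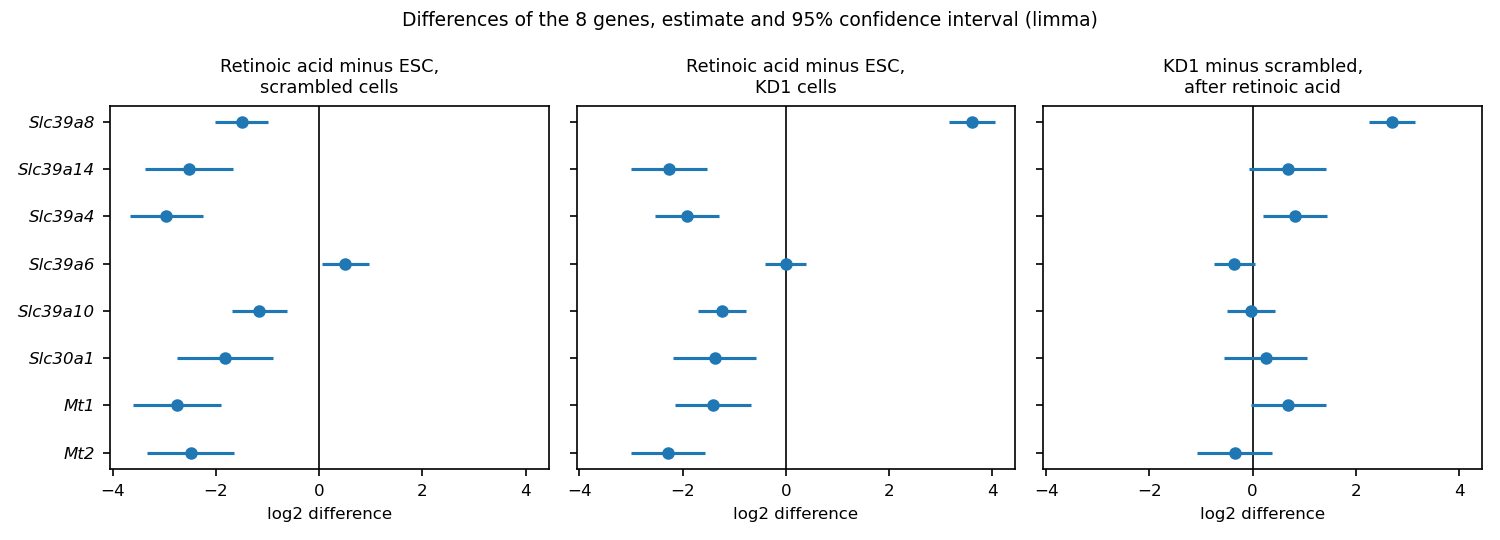
Log2 differences (horizontal axis) of the 8 genes (vertical axis) with their 95% confidence intervals from limma, for retinoic acid minus ESC in scrambled and in KD1 cells and for KD1 minus scrambled after retinoic acid. In the third panel the interval of Slc39a8 runs from 2.25 to 3.14 and that of Slc39a4 from 0.21 to 1.44, and those of Slc39a14, Slc39a6, Slc39a10, Slc30a1, Mt1 and Mt2 include 0.

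The 4 KD1 arrays after retinoic acid were not alike for these genes. Replicates 3 and 4 lay apart from replicates 1 and 2 for 6 of the 8 genes, as they did for 53.5% of all genes, from -0.81 for Slc39a4 to 0.66 for Slc39a14. Slc39a8 did not differ in this way (0.00), and its difference from scrambled cells was 2.69 or 2.70 with either pair alone.

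The rest of the zinc transport system was read from a list of 21 further genes, of which 18 were tested. Slc39a12, Slc30a8 and Mt4 lay below the filter. In KD1 cells after retinoic acid 2 of 8 further ZIP genes and 3 of 8 further ZnT genes were higher than in scrambled cells, and 0 were lower, where 11.2% of all genes were called higher. The medians were 0.37 for the ZIP and 0.43 for the ZnT genes, against -0.02 over all genes. Slc30a4, which loads zinc into vesicles and milk, gave 7.94, 8.19, 8.27 and 8.19 in retinoic acid KD1 against 6.53 and 6.51 in scrambled cells, a rise of 1.63 ± 0.17 (adjusted p = 4.47e-05). In ESCs it gave 5.62 and 6.23 in scrambled and 5.91 and 6.02 in KD1 cells, so that its arrays overlapped there. Slc39a13, an importer of the Golgi and vesicles, was higher by 0.74 ± 0.15 (adjusted p = 0.0039), but that p was 0.0785 once scrambled replicate 1 was left out. Slc30a10, which exports manganese, was higher by 0.85 ± 0.20 (adjusted p = 0.00839), with 0.143 without scrambled replicate 1. Slc39a7 (0.62 ± 0.20, adjusted p = 0.0466) and Slc30a5 (0.55 ± 0.17, adjusted p = 0.0417), both of the secretory pathway, lost the threshold under most other settings.

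With retinoic acid the further transporters moved both ways. Slc30a2, a vesicular exporter, fell by an estimate of -2.19 ± 0.20 in scrambled and -2.36 ± 0.17 in KD1 cells (adjusted p = 9.21e-06 and 8.97e-07), and Slc30a3 and Slc39a11 also fell in both. Slc30a9 rose by 0.70 ± 0.15 and 0.69 ± 0.13 (adjusted p = 0.00361 and 0.00102). Slc30a4 rose in KD1 cells by 2.18 ± 0.17 (adjusted p = 1.66e-06) and in scrambled cells by 0.59 ± 0.20 (adjusted p = 0.034), a call that 9 of 24 other settings lost. Slc39a13 rose in KD1 cells by 1.08 ± 0.15 (adjusted p = 0.000108). In scrambled cells 2 of 8 further ZIP genes fell, 4 of 8 further ZnT genes fell and 2 rose. There 16.7% of all genes were called lower, and 2914 of 12988 were called higher. In KD1 cells 1 ZIP gene fell and 1 rose, and 3 ZnT genes fell and 2 rose. There 21.4% of all genes were called lower, and 3819 of 12988 were called higher. In KD2 ESCs Slc39a7, Slc30a5 and Slc30a7 were lower by -0.94, -0.72 and -1.01 (adjusted p = 0.0273, 0.0444 and 0.0174). Of 23 other settings 9 lost the call of Slc39a7, 18 that of Slc30a5 and 6 that of Slc30a7. KD2 replicate 2 alone gave -1.34, -1.03 and -1.43.

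Mtf1 is the gene of the metal-sensing factor. Its group means ran from 5.45 in retinoic acid KD1 to 5.65 in KD2 ESCs, and neither it nor Mt3, a metallothionein of the brain, was called by limma in any of the 7 comparisons. In these comparisons 0 of their unadjusted p-values were under 0.05.

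Genes of other metals and stresses that act on metallothioneins were read in the same way. Of 10 tested iron and manganese transport genes 0 were called between KD1 and scrambled cells after retinoic acid. Their median was -0.20, against -0.02 over all genes. In this comparison, read for the other lists too, 11.2% of all genes were called higher and 11.5% lower. An unadjusted p under 0.05 was found for 2 of the 10 and for 4317 of all 12988 genes. With retinoic acid 2 of the 10 rose and 5 fell in scrambled cells, where 39.1% of all genes were called in either direction. In KD1 cells 2 rose and 4 fell, where 50.8% of all genes were called. Slc40a1, the iron exporter ferroportin, rose by 1.79 ± 0.39 and 2.90 ± 0.34, and Tfrc, the transferrin receptor, fell by an estimate of -1.44 ± 0.34 and -2.52 ± 0.29. Of 8 copper genes 1 was higher in KD1 after retinoic acid, Slc31a2, which encodes a copper transporter of endosomes, by 1.17 ± 0.19 (adjusted p = 0.000872). Of 9 targets of the oxidative stress factor Nrf2, Gclm and Srxn1 were higher there, by 0.71 ± 0.23 and 0.54 ± 0.15 (adjusted p = 0.046 and 0.0255). Of 7 glucocorticoid targets Klf9 (1.58 ± 0.15) and Sgk1 (1.25 ± 0.21) were higher and Fkbp5 (-1.34 ± 0.24) was lower. The medians of the copper, Nrf2, glucocorticoid and heat shock lists were 0.40, 0.08, 0.21 and -0.17. Of 7 heat shock genes 1 was lower, the chaperone gene Hsph1, by -0.94 ± 0.25 (adjusted p = 0.0185).

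Bicarbonate and carbonic anhydrase genes were read because ZIP8 carries metal together with bicarbonate, which carbonic anhydrases form. Of 9 tested genes 2 were higher and 3 lower in KD1 than in scrambled cells after retinoic acid, where 11.2% and 11.5% of all genes were. Car12, a membrane carbonic anhydrase gene and among the 5 genes most like Slc39a8, was higher by 2.64 ± 0.21 (adjusted p = 5.23e-06). Car2, the cytosolic enzyme, was higher by 2.27 ± 0.23 (adjusted p = 3.2e-05), and Car14 was lower by -1.03 ± 0.23 (adjusted p = 0.00681). In KD1 ESCs Car2 was lower by -2.01 ± 0.26 and Car14 by -2.29 ± 0.26, and 0 of the 9 were called higher. There 2.32% of all genes were called in either direction. Nothing is read from these values. That comparison chose Slc39a8, and the lists were chosen with earlier results of these data known. The same scrambled arrays enter the KD2 counts. In KD2 ESCs 5 of 9 were lower and 0 were higher, where 7.15% of all genes were called lower, and the counts were 5 and 0 with KD2 replicate 2 alone, where 15.1% were.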

How the data were processed

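Labelled RNA of 12 samples was hybridised to 12 Affymetrix arrays. The authors deposited log2 probe set values, made with RMA per the submitters' processing notes. Its version and settings were not given in the sources used here. Probe sets were named through the platform's gene table (35556 probe sets, 21789 with 1 symbol, 19938 genes). The probe set with the highest mean stood for a gene. A gene entered the tests (12988 did) if 2 or more arrays put it above percentile 40 of named genes. Group means were fitted over the 12 arrays in limma 3.58.1 (R 4.3.3; 7 residual degrees of freedom, prior 4.58). Two-sided p-values were Benjamini-Hochberg adjusted over all genes within each of 7 contrasts, with a threshold of 0.05. The script was tested on simulated data. All log2 differences are differences of group means.

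The genes and lists were chosen with earlier results of these data known. Named genes are all 8 members, Smarcd1, up to 4 called genes of each list, any other zinc gene past the threshold, the 5 genes most alike and the 3 neighbours on each side. Replicate numbers did not pair samples. Alternatives covered filters, scaling, the variance trend, array weights, the arrays fitted, probe set means, a replicate block, subsets of the KD1 arrays after retinoic acid and each array left out. The number of arrays limits the precision.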

Additional observations from a re-analysis of the deposited data

Results flagged for a closer look

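In ESCs both KD1 arrays of Slc39a8 were lower than both scrambled ones, and all 4 KD1 arrays lay above both scrambled arrays after retinoic acid. The knockdown differences in the 2 states were 5.11 ± 0.31 log2 units apart. The difference between the states was not tested, because the fall in ESCs chose the gene. For Slc30a4 the knockdown difference was larger after retinoic acid than in ESCs by 1.59 ± 0.26 (limma interaction, adjusted p = 0.00356), and its arrays did not move in opposite directions. For Mt3 the 4 KD1 arrays after retinoic acid gave 6.08, 6.07, 6.06 and 6.33, and the gap of replicate 4 to the nearest array was 0.902 of the range. About 1 in 20 groups is flagged in this way by chance.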

How the results depend on the processing

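Of 1304 values of the 8 genes under other settings, 1238 were labelled unchanged, 35 passed the threshold anew, 3 lost it, 24 reversed and 4 moved. For tested values, unchanged means the same direction and side of the threshold. For values given as a description it means a shift no larger than the SD within groups, also where a small value changed sign. Their side of the threshold was not counted. Of the other zinc genes' values, 476 kept their call and 141 lost it. The number of the 8 genes called after retinoic acid was 1. It was 4 with array weights, with only the compared arrays and without both KD2 arrays, 2 with a replicate block (Slc39a4 at 1.23, adjusted p = 0.0205) and 2 with retinoic acid KD1 replicates 1 and 2 alone, and it ran from 1 to 4 when single arrays were left out. For the interaction 0 of the 7 genes other than Slc39a8 were called, but Mt1 was called with array weights. Mt1 was at 2.01 there without scrambled retinoic acid replicate 1. In KD2 ESCs, and between KD2 and KD1, 0 of the 7 were called except in fits that left out 1 KD2 array. Slc39a8 is not counted in these comparisons, because they use arrays that chose it. An arm left with 1 array was assumed to vary like the others.

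Leaving out single arrays reversed small differences: Slc39a14 in KD2 ESCs (-0.71 to 0.76) and between KD2 and KD1 (-1.14 to 0.33), Slc30a1 in the same comparisons (-0.80 to 0.89 and -0.61 to 1.09), Mt1 (-0.49 to 0.03) and Mt2 (-1.12 to 0.15) between KD2 and KD1, Mt2 after retinoic acid (-0.80 to 0.11) and in the interaction (-0.25 to 0.66), Slc39a10 after retinoic acid (-0.11 to 0.02) and in the interaction (-0.20 to 0.03), and Slc39a6 with retinoic acid in KD1 cells (-0.06 to 0.05). Slc39a6 there was at 0.02 with array weights and 0.08 with KD1 replicates 3 and 4 alone, which put Slc39a10 after retinoic acid at 0.05. The interaction of Slc39a14 was -0.08 with a replicate block and -0.08 with KD1 replicates 1 and 2 alone. Some values given as a description also changed sign when single arrays were left out, but were labelled unchanged. Slc39a8 between KD2 and KD1 ran from -0.57 to 0.25. In KD1 ESCs Slc39a4 ran from -0.46 to 0.04 and Slc39a6 from -0.01 to 0.32. Slc39a10 ran from -0.06 to 0.17 there and Slc30a1 from -0.41 to 0.02. The causes were not tested. Deviations of arrays with the same replicate number correlated between -0.18 and 0.24.

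Over all genes, calls ranged from 26 to 1148 in KD1 ESCs (301 in the fit used), 0 to 4463 in KD2 ESCs (1302), 0 to 4550 between KD2 and KD1 (351), 1526 to 4988 after retinoic acid (2942), 3341 to 7074 for retinoic acid in scrambled cells (5079) and 447 to 2548 for the interaction (1024). With each array centred on its median the split in KD2 ESCs moved from 374 higher and 928 lower to 532 and 668.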
